A study of Mus musculus with 45 samples.

Results

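The data described here are the RNA-seq libraries of mouse embryonic stem (ES) cells in which the transcription factor GABPA was degraded for 24 h. They were chosen by their sample titles and make up 4 of the 18 RNA-seq libraries and of the 45 samples of all kinds in the series: 2 libraries of cells given the solvent DMSO and 2 of cells given 0.5 µM dTAG13 for 24 h. All 4 come from the E14 line grown in 2i/LIF (inhibitors of MEK and GSK3 with leukaemia inhibitory factor), called 2iES cells below, and in all 4 both Gabpa alleles carry a dTAG degron, an FKBP-based tag with HA epitopes that dTAG13 brings to the ubiquitin ligase cereblon. The tagged cells were derived from single picked clones, the sources used here do not say how many clones the libraries represent, and no library of untagged cells given dTAG13 was among these 4. Genes were compared between dTAG13 and DMSO with edgeR's quasi-likelihood test, and the p-values of every gene tested were adjusted together after Benjamini and Hochberg. A gene was called higher or lower at an adjusted p below 0.05, a change of at least 2-fold and a mean of at least 1 FPKM (fragments scaled to transcript length and library depth) in 1 group. The verbs rose and fell are used for called genes only.

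GABPA is the DNA-binding subunit of the GA-binding protein (GABP), an ETS-family factor that acts together with GABPB1 or GABPB2, which carry the activation domain. It binds the letters CCGGAAG and close variants of them, mostly close to the transcription start of genes that nearly all cells use, among them genes for mitochondria, ribosomes and the cell cycle. Cells in 2i/LIF are held in a naive pluripotent state that resembles the epiblast before implantation, with Pou5f1 (OCT4), Nanog and Sox2 at its core.

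The expected counts of the DMSO libraries summed to 27660132 and 27462143 and those of the dTAG13 libraries to 25056670 and 20146785. The first DMSO library stood apart: transcripts of the mitochondrial genome took 0.371% of its counts against 2.17% in the second and 5.16% and 4.51% with dTAG13, and the DMSO pair differed by 16.1 times the variance of sampling alone against 2.85 times for the dTAG13 pair. For part of the results, values without the first DMSO library are therefore given beside the main ones. A fit that leaves out a library takes its spread from the other group alone. Counts of calls from such fits are descriptions only. Protein-coding genes took 97.2% and 96.4% of the counts with DMSO and 94.0% and 94.2% with dTAG13. Defining ES cell genes were present in all 4 libraries (Dppa5a at 28398 and 34261 FPKM with DMSO and 26763 and 27151 FPKM with dTAG13), whereas the listed germ layer markers summed to 1.56 to 2.66 FPKM per library. The study calls its replicates independent, but the labels name no separate cultures, so the p-values measure the spread between these libraries, which may in part be technical.

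The cells given dTAG13 differed from the DMSO cells in both directions across much of the transcriptome. Of 15511 genes tested, 2415 were called lower (15.6%) and 1924 called higher (12.4%). By the adjusted p alone, 4352 genes were lower (28.1%) and 4117 higher (26.5%). The median log2 fold change over all genes tested was 0.03, with quartiles at -0.76 and 0.79, so the whole distribution was wide and centred near 0. A change of 4-fold or more was called for 798 lower and 711 higher genes, and one of 8-fold or more for 260 and 270. The FPKM of the groups did not overlap for 2397 of the genes called lower and 1912 of those called higher. Without the first DMSO library 2207 genes were called lower and 1697 higher, of which 2048 and 1581 were also called with all 4 libraries. The values are shares of each library's RNA: with upper-quartile scaling, which set the median log2 fold change to 0.21, 1994 genes were lower and 2467 higher, so that lower genes were 44.7% of the calls in place of 55.7%.

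The genes that fell were mostly well expressed, and those that rose mostly were not. The median level in DMSO was 13.9 FPKM for genes called lower, 1.48 FPKM for genes called higher and 3.70 FPKM for all genes tested. Among genes at 30 to 100 FPKM in DMSO, 29.1% were called lower and 3.57% higher, and among those at 1 to 3 FPKM the shares were 18.1% and 17.6%. Genes under 1 FPKM in DMSO can hardly be called lower under the level threshold, and none of 3241 was. By gene type, 2233 of 12992 protein-coding genes were lower and 1428 higher. The order was the other way round for long intergenic non-coding RNAs (48 lower and 110 higher of 425), antisense transcripts (29 and 81 of 385) and small nucleolar RNAs (0 and 26 of 39).

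The partners of GABPA in the complex rose. Gabpb1, which lies at chr2:126627442-126676337 (GRCm38), was at 21.9 and 21 FPKM in the DMSO libraries and 91.3 and 86.95 FPKM in the dTAG13 libraries (log2 fold change 2.10 ± 0.11 SE, adjusted p = 4.01e-05). The pairs did not overlap and lay about 4-fold apart. Gabpb2 was at 3.03 and 3.54 FPKM with DMSO and 5.55 and 5.04 FPKM with dTAG13 (log2 fold change 1.16 ± 0.21 SE, adjusted p = 0.00353), and without the first DMSO library its log2 fold change was 0.90, under the fold threshold. Gabpa itself, at chr16:84834925-84863779, is degraded as protein, so its mRNA is no measure of the degradation. Its mRNA was at 8.67 and 7.05 FPKM in the DMSO libraries and 14.7 and 14.5 FPKM in the dTAG13 libraries (log2 fold change 0.93 ± 0.13 SE, adjusted p = 0.00136), just under the 2-fold threshold. It was called under 6 alternative settings, among them the test against a 1.5-fold change, which applies no 2-fold threshold. Of its exonic bases 6.98% overlap exons of Atp5j on the other strand, and reads of the pair cannot be told apart in libraries prepared without strand.

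**Figure D1:**
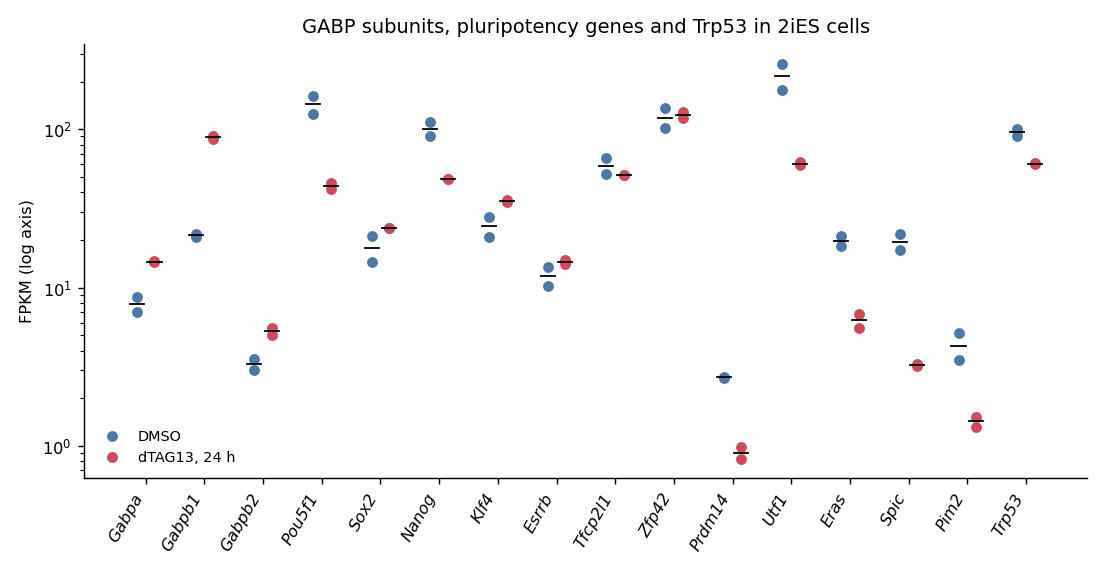
Level (FPKM, log axis) of the GABP subunits, 12 pluripotency genes and Trp53 in each of the 4 libraries of 2iES cells. Points are single libraries (blue, DMSO, red, dTAG13) and black lines are group means. Gabpb1 lies near 21 FPKM in both DMSO libraries and near 90 FPKM in both dTAG13 libraries, while Esrrb, Tfcp2l1, Zfp42 and Sox2 lie at similar levels in both groups.

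The genes with the largest falls among protein-coding genes at 10 FPKM or more lost nearly all of their transcript. Lypla2, which encodes an acyl-protein thioesterase, was at 26.7 and 15.7 FPKM in the DMSO libraries and 0.08 and 0.07 FPKM in the dTAG13 libraries, at or under 3 counts with dTAG13, which makes it at least 232-fold lower. Krt10, an epithelial keratin gene, was at 32.8 and 30.6 FPKM with DMSO and 0.08 and 0.03 FPKM with dTAG13 (log2 fold change -7.09, adjusted p = 3.63e-05). Lyrm2, which encodes a small mitochondrial LYR-motif protein, was at 97.7 and 96.6 FPKM with DMSO and 0.86 and 0.2 FPKM with dTAG13 (log2 fold change -6.83, adjusted p = 2.93e-05). These 3 genes went from 15 FPKM or more to below 1 FPKM in both dTAG13 libraries. Exoc3, a subunit of the exocyst that tethers secretory vesicles, was at 18.8 and 18.2 FPKM with DMSO and 0.57 and 0.34 FPKM with dTAG13 (log2 fold change -6.39, adjusted p = 2.38e-05). Kti12, a partner of the Elongator complex in transfer RNA modification, was at 34.6 and 23.8 FPKM with DMSO and 0.44 and 0.37 FPKM with dTAG13 (log2 fold change -6.19, adjusted p = 3.2e-05). Of the exonic bases of Kti12 51.3% overlap a gene on the other strand. The sixth, Gm49383, was at 0 in both dTAG13 libraries, but 92.5% of its 31-base words also occur in transcripts of other genes, so its counts may be divided between gene models. Lypla2, Krt10 and Gm49383 could not be tested without the first DMSO library, since a gene needed 10 counts in 2 libraries.

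Among protein-coding genes at 10 FPKM or more in 1 group, those with the largest rises were low or nearly silent in DMSO. Art3, of the ADP-ribosyltransferase family, was at 0.58 and 0.45 FPKM with DMSO and 23.6 and 24.6 FPKM with dTAG13 (log2 fold change 5.76, adjusted p = 2.94e-05). Fas, the death receptor gene and a p53 target, was at 0.44 and 1.23 FPKM with DMSO and 24.3 and 26.8 FPKM with dTAG13 (log2 fold change 5.16, adjusted p = 4.52e-05). Neurod1, a neuronal transcription factor gene, was at 0.31 and 0.61 FPKM with DMSO and 16.4 and 16.3 FPKM with dTAG13 (log2 fold change 5.11, adjusted p = 4.79e-05). Ano3 of the anoctamin family and Mlana, a melanocyte antigen gene, rose by 4.82 and 4.81 on the log2 scale. In each of these genes both dTAG13 libraries lay more than 10-fold above both DMSO libraries. A sixth, listed as Sept2, rose by 5.55, but all of its 31-base words are shared with another gene model.

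In absolute level, the largest losses among called genes were in housekeeping genes. Banf1, which encodes a chromatin-bridging protein of the nuclear envelope, was at 1743 and 1505 FPKM with DMSO and 282 and 304 FPKM with dTAG13 (log2 fold change -2.49, adjusted p = 3.16e-05). Of the exonic bases of Banf1 28.6% overlap a gene on the other strand. Pfn1, the actin-binding profilin gene, was at 2984 and 2192 FPKM with DMSO and 696 and 755 FPKM with dTAG13 (log2 fold change -1.86, adjusted p = 0.000223). The other called genes with the largest falls in mean FPKM were Snrpe, a core protein gene of spliceosomal snRNPs, and Rps27 and Rpl37, of the cytosolic ribosome. The largest gains in mean FPKM among called genes were all non-coding. They included Malat1, an abundant nuclear RNA, at 4566 and 5493 FPKM with DMSO and 13365 and 13617 FPKM with dTAG13 (log2 fold change 1.44, adjusted p = 0.000176). The other called genes with the largest gains were the mitochondrial transfer RNA gene mt-Ts1, Gm28437 and Gm29216, copies of mitochondrial sequence whose 31-base words are shared to 100% and 97.2%, and the small nucleolar RNA gene Gm24616. All 4 differed more than 3-fold between the DMSO libraries.

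The letters that GABPA recognises were found in the promoters of genes that fell more often than in others. The promoters were those of RefSeq on GRCm38.p6, 250 bases before to 50 bases after each start, of protein-coding genes outside chromosome 18 (10370 of 12670 tested genes matched), and CCGGAAG was searched on both strands. It was present for 654 of 1776 genes called lower (36.8%, 95% Wilson interval 34.6 to 39.1%), 1288 of 7438 tested genes that were not called (17.3%, 16.5 to 18.2%) and 114 of 1156 genes called higher (9.86%, 8.27 to 11.7%). Among all 27025 promoters in the table the share was 9.93%. Seen the other way, 31.8% of 2056 genes with the letters and 13.5% of 8314 without them were called lower, and their median log2 fold changes were -0.57 and 0.05.

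The expression level in DMSO also differed between these sets, and the calls were therefore counted within bins of level. In all 6 bins from 1 FPKM upwards the genes with CCGGAAG were called lower more often than those without: 25.3% against 15.0% at 1 to 3 FPKM, 42.9% against 23.8% at 30 to 100 FPKM and 46.3% against 21.5% at 100 to 300 FPKM. Genes with the letters were called higher less often in the 6 bins up to 300 FPKM, and above 300 FPKM the shares were 2.21% with and 1.62% without. The matches in genes that fell lay close to the start site, at a median of -23 bases (23 before it), and 65.2% of 818 matches lay between 50 bases before and 25 bases after it, against 51.0% of 1387 matches in genes that were not called. A match is a description of the sequence, not evidence of binding. Binding data of the series were not analysed here.

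**Figure D2:**
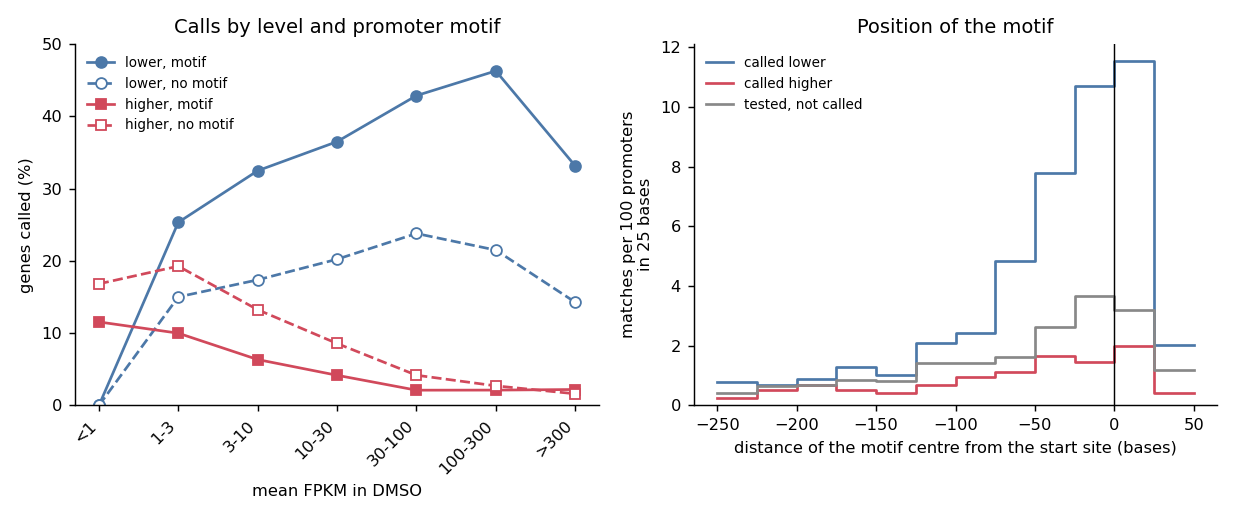
Left, share (%) of genes called lower (blue) or higher (red) in bins of mean DMSO FPKM, for genes with CCGGAAG in the promoter (filled symbols, solid lines) and without it (open symbols, dashed lines). Right, matches per 100 promoters in bins of 25 bases by distance from the start site, for genes called lower (blue), called higher (red) and not called (grey). From 1 FPKM upwards the filled blue points lie above the open ones, and the blue histogram peaks next to the start site.

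The promoter stretches below show the letters in 6 genes that fell and 3 that rose, to let their context be compared. They are genes named by the rule whose stretch overlaps no annotated exon. Each is written from 5′ to 3′ on the strand of its gene, in lower case with the 7 matching bases in capitals (CTTCCGG is the same motif on the other strand).

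Lypla2, chr4:135972628-135972704, minus strand: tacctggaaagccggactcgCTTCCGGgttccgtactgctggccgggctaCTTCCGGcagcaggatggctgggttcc
Arpc3, chr5:122391847-122391877, plus strand: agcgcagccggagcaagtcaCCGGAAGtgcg
Txn2, chr15:77929087-77929133, minus strand: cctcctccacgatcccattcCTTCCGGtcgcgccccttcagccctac
Taf12, chr4:132274323-132274369, plus strand: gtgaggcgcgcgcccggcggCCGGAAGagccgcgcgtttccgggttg
Rpl37, chr15:5116570-5116612, plus strand: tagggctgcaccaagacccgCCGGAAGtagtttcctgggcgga
Cops9, chr1:92641986-92642013, minus strand: tagacgtgctcggaagaacgCCGGAAGt
Mcl1, chr3:95658638-95658684, plus strand: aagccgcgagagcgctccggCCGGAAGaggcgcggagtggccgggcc
Ndufb6, chr4:40279627-40279671, minus strand: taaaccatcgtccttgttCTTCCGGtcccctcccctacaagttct
Pmm1, chr15:81961038-81961084, minus strand: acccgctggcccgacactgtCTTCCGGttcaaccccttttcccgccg

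In the genes that fell the match was centred 5 (Cops9) to 116 (Txn2) bases before the RefSeq start site, and Lypla2 held 2 matches, the first 87 bases before it. Arpc3, which encodes a subunit of the actin-nucleating ARP2/3 complex, was at 170.5 and 143 FPKM with DMSO and 14.9 and 12.3 FPKM with dTAG13 (log2 fold change -3.56, adjusted p = 2.93e-05). Txn2, the mitochondrial thioredoxin gene, was at 311 and 262 FPKM with DMSO and 38 and 35.7 FPKM with dTAG13 (log2 fold change -3.05, adjusted p = 2.44e-05). Taf12, a subunit of TFIID, was at 109 and 106 FPKM with DMSO and 16.7 and 16.8 FPKM with dTAG13 (log2 fold change -2.71, adjusted p = 2.39e-05). All 3 fell by more than 6-fold. The letters also stood before genes that rose: in Mcl1, an anti-apoptotic BCL2 family gene, 60 bases before the start (25.1 and 28.5 FPKM with DMSO and 71.5 and 71.3 FPKM with dTAG13, log2 fold change 1.38, adjusted p = 0.00015), in Pmm1, a phosphomannomutase gene, 131 bases before (log2 fold change 1.01, adjusted p = 0.00137), and in Ndufb6 229 bases before. Pmm1 lost its call without the second DMSO library (log2 fold change 0.79) and with no filter on low counts (0.93). Gabpa itself has the letters in its promoter.

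Many genes for the upkeep and expression of mitochondrial DNA fell. Of 14 factors of mitochondrial DNA transcription and replication, 6 were called lower and 0 higher, with a median log2 fold change of -0.87. Tfam, which packages mitochondrial DNA and starts its transcription, was at 92.6 and 99.4 FPKM with DMSO and 41.8 and 42.95 FPKM with dTAG13 (log2 fold change -1.13 ± 0.11 SE, adjusted p = 0.000283). Ssbp1, the mitochondrial single-strand binding protein gene, was at 768 and 806 FPKM with DMSO and 279 and 303 FPKM with dTAG13 (log2 fold change -1.44 ± 0.10 SE, adjusted p = 0.000105). Twnk, the replicative helicase gene, was at 3.84 and 4.42 FPKM with DMSO and 1.03 and 0.76 FPKM with dTAG13 (log2 fold change -2.38 ± 0.23 SE, adjusted p = 0.000324). Tfb1m, Polg2 and Slirp also fell, although 97.8% of the exonic bases of Slirp overlap genes on the other strand. Lrpprc, whose product is the RNA-binding partner of SLIRP, was at 8.39 and 10.2 FPKM with DMSO and 10.6 and 9.16 FPKM with dTAG13 (adjusted p = 0.834) and Polg, the polymerase gene, had a log2 fold change of 0.02. Of the 13 genes with a promoter 9 held CCGGAAG, and 5 of these 9 were called lower.

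Genes of mitochondrial translation and import were also lower far more often than higher. Of 83 mitochondrial ribosomal proteins 27 were called lower and 0 higher, with a median of -0.65, and 1 was higher when the first DMSO library or 1 of the dTAG13 libraries was left out. Mrpl27, a protein of the large subunit, was at 261 and 252 FPKM with DMSO and 10.5 and 9.86 FPKM with dTAG13 (log2 fold change -4.77 ± 0.14 SE, adjusted p = 1.88e-05). It shares 35.5% of its 31-base words with other gene models. Aurkaip1, of the small subunit, was at 373 and 326 FPKM with DMSO and 65.1 and 63.04 FPKM with dTAG13 (log2 fold change -2.45 ± 0.12 SE, adjusted p = 2.97e-05). Mrpl53 had the largest fall of the list, -5.59, but shares 84.4% of its 31-base words with other gene models. Of 71 of these genes with a promoter, 14 of 26 with CCGGAAG and 8 of 45 without it were called lower. Of 30 translation factors and transfer RNA synthetases 10 were lower and 0 higher (median -0.71), among them the arginyl-tRNA synthetase gene Rars2 at 77.7 and 72.4 FPKM with DMSO and 7.14 and 8.02 FPKM with dTAG13 (log2 fold change -3.45, adjusted p = 2.16e-05). Of 28 import genes 10 were lower and 0 higher (median -0.63). Timm10b, a small chaperone gene of the intermembrane space, was at 286 and 246 FPKM with DMSO and 11.5 and 14.7 FPKM with dTAG13 (log2 fold change -4.50, adjusted p = 2.1e-05).

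The respiratory chain itself did not move as 1 group. Of 37 nuclear-encoded complex I subunits 5 were lower and 2 higher, with a median of 0.18, and with upper-quartile scaling 4 were higher. Ndufa13 was at 450.2 and 416 FPKM with DMSO and 38.7 and 43.3 FPKM with dTAG13 (log2 fold change -3.43, adjusted p = 1.88e-05). Ndufb6 moved the other way, at 1084 and 1022 FPKM with DMSO and 2841 and 2969 FPKM with dTAG13 (log2 fold change 1.45, adjusted p = 9.13e-05). Of their exonic bases 29.98% and 39.0% overlap a gene on the other strand. None of 11 cytochrome c oxidase subunits and none of 17 ATP synthase subunits was called by edgeR's quasi-likelihood test at the 2-fold threshold. At the adjusted p alone 4 and 10 of them were lower and 5 and 3 higher. When 1 of the dTAG13 libraries was left out, 1 cytochrome c oxidase subunit was called higher. Without the first dTAG13 library 1 ATP synthase subunit was higher, and without the second DMSO library 1 was higher and 1 lower. Of complexes II and III, Sdhb and Uqcrq fell by 1.39 and 1.22 on the log2 scale. Sdhd fell by 1.05, a call lost under 5 other settings, among them leaving out the first or the second dTAG13 library (log2 fold changes -0.97 and -0.96). Among citric acid cycle enzymes 4 of 17 were lower and 0 higher, led by Idh3b, a subunit of the NAD-dependent isocitrate dehydrogenase, at 139 and 114 FPKM with DMSO and 6.11 and 7.68 FPKM with dTAG13 (log2 fold change -4.32, adjusted p = 1.88e-05). Dlst, a subunit of the oxoglutarate dehydrogenase complex, was at 5.99 and 5.79 FPKM with DMSO and 0.34 and 0.47 FPKM with dTAG13 (log2 fold change -4.03, adjusted p = 5.28e-05). Of the 14 enzyme genes with a promoter, 4 of 5 with CCGGAAG and 0 of 9 without it were called lower.

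Transcripts of the mitochondrial genome had higher values with dTAG13, but the DMSO libraries did not agree on their level. The 13 protein-coding transcripts together summed to 4390.0 FPKM in the first DMSO library, 30880.1 FPKM in the second, and 66795 and 57645 FPKM with dTAG13. Of 12 tested 3 were called higher, and mt-Co1, for a cytochrome c oxidase subunit, was at 349 and 2187 FPKM with DMSO and 5970.4 and 5189 FPKM with dTAG13 (log2 fold change 2.11 ± 0.71 SE, adjusted p = 0.0402). The number called was 6 without the first DMSO library and 12 without any other single library. The median log2 fold change of the 12 was 1.81, against 1.00 without the first DMSO library and 3.73 without the second. The groups did not overlap, but as a ratio the DMSO libraries lay further apart than the second of them lay from either dTAG13 library.

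Of 98 ribosome biogenesis genes 40 were called lower and 1 higher, with a median of -0.71. Rpf1, needed for assembly of the large subunit, was at 182 and 179 FPKM with DMSO and 8.01 and 8.08 FPKM with dTAG13 (log2 fold change -4.65 ± 0.12 SE, adjusted p = 1.88e-05). Ebna1bp2, also of large subunit assembly, was at 209 and 176 FPKM with DMSO and 13.5 and 11.9 FPKM with dTAG13 (log2 fold change -4.05 ± 0.13 SE, adjusted p = 1.88e-05). The single member that rose was Utp20 (2 members without the second library of either group), of the small subunit processome, at 6.98 and 9.34 FPKM with DMSO and 20.7 and 21.5 FPKM with dTAG13 (log2 fold change 1.33 ± 0.16 SE, adjusted p = 0.000789). Of the cytosolic ribosomal proteins themselves 4 of 78 were called lower and 0 higher, with a median of -0.05, and 2 were higher without the second DMSO and 1 without the second dTAG13 library. Of the 4, Rps27 fell the most, at 2532 and 3203 FPKM with DMSO and 529 and 513 FPKM with dTAG13 (log2 fold change -2.42 ± 0.13 SE, adjusted p = 3.85e-05). For the assembly factors with a promoter, 18 of 37 with CCGGAAG and 12 of 42 without it were called lower.

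**Figure D3:**
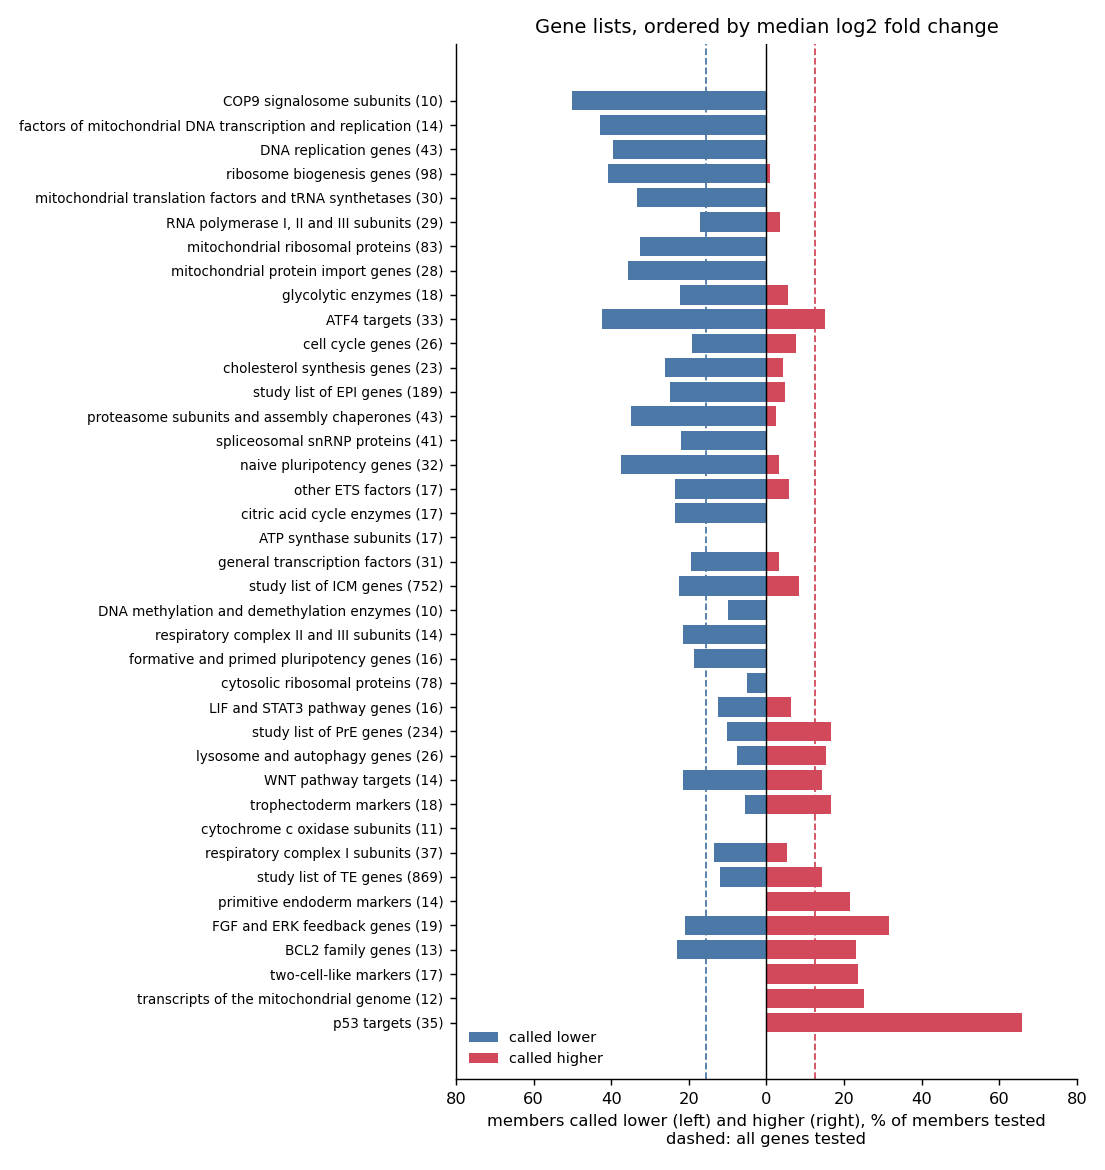
Share (%) of tested members called lower (blue, to the left) and higher (red, to the right) in each gene list with 10 or more tested members, ordered by median log2 fold change (most negative at the top). The number of members tested is in brackets and the dashed lines mark all genes tested (15.6% lower, 12.4% higher). COP9 signalosome subunits stand at the top and p53 targets at the bottom.

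The COP9 signalosome removes NEDD8 from cullin ubiquitin ligases, and 5 of its 10 subunit genes were lower and 0 higher (median -1.01). Without the second DMSO library 6 were lower and 1 higher, and with upper-quartile scaling 3 were lower. Cops7a was at 176 and 144 FPKM with DMSO and 3.9 and 3.85 FPKM with dTAG13 (log2 fold change -5.55 ± 0.17 SE, adjusted p = 1.88e-05). Gps1 was at 173 and 129.8 FPKM with DMSO and 17.4 and 16.2 FPKM with dTAG13 (log2 fold change -3.24 ± 0.18 SE, adjusted p = 4.52e-05), with 43.0% of its 31-base words shared with other gene models. Cops7b, the paralogue of Cops7a, had a log2 fold change of -0.84 and was not called. Of 43 proteasome genes 15 were lower and 1 higher (median -0.37). Pomp, the assembly chaperone of the 20S core, was at 361 and 423 FPKM with DMSO and 18.6 and 15.4 FPKM with dTAG13 (log2 fold change -4.69 ± 0.13 SE, adjusted p = 1.88e-05). Psmb4, a 20S core subunit, was at 534 and 459 FPKM with DMSO and 30.4 and 30.9 FPKM with dTAG13 (log2 fold change -4.10 ± 0.13 SE, adjusted p = 1.88e-05). The single member that rose was Psmb9, an immunoproteasome subunit, at 1.47 and 1.95 FPKM with DMSO and 7.22 and 9.58 FPKM with dTAG13 (log2 fold change 2.24 ± 0.23 SE, adjusted p = 0.000412).

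Most DNA replication genes had a negative log2 fold change, and part of them were called. Of 43, 17 were called lower and 0 higher, 39 had a negative log2 fold change, and the median was -0.73. Rfc3, a subunit of the clamp loader, was at 134 and 129.7 FPKM with DMSO and 9.89 and 10.2 FPKM with dTAG13 (log2 fold change -3.70 ± 0.13 SE, adjusted p = 1.88e-05). Gins4, of the replicative helicase, was at 258 and 219 FPKM with DMSO and 41.4 and 41.9 FPKM with dTAG13 (log2 fold change -2.55 ± 0.13 SE, adjusted p = 3.51e-05). Mcm2, of the same helicase, was at 30.4 and 35.8 FPKM with DMSO and 32.1 and 29.6 FPKM with dTAG13 (adjusted p = 0.369). Here the promoter letters did not follow the calls, since 4 of 15 genes with CCGGAAG and 8 of 21 without it were lower. Among 26 cell cycle genes 5 were lower (19.2%) and 2 higher (7.69%), against 15.6% and 12.4% of all genes (median -0.58). The cyclin genes Ccnd3, Ccne1 and Ccnd1, Aurkb and Cdk2 fell, and the inhibitor genes Cdkn1a and Cdkn2b rose. Without the second DMSO library 9 were lower, and without the second dTAG13 library Cdk2 lost its call (log2 fold change -0.98). Ccne1, the cyclin of entry into S phase, was at 107 and 85.2 FPKM with DMSO and 29.6 and 26.9 FPKM with dTAG13 (log2 fold change -1.81 ± 0.15 SE, adjusted p = 0.000161).

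Of 29 RNA polymerase subunits 5 were lower and 1 higher (median -0.68), and without the second DMSO library 9 were lower. Polr2h, shared by all 3 polymerases, was at 417 and 355 FPKM with DMSO and 80.03 and 93.1 FPKM with dTAG13 (log2 fold change -2.21, adjusted p = 6.95e-05), and Polr2b, the second-largest subunit of polymerase II, rose by 1.23 on the log2 scale. Of 31 general transcription factors 6 were lower and 1 higher (2 without the second library of either group), with Ercc3, the TFIIH helicase gene, at 9.89 and 8.9 FPKM with DMSO and 1.16 and 0.58 FPKM with dTAG13 (log2 fold change -3.92, adjusted p = 0.000109). Of 41 spliceosomal snRNP proteins 9 were lower and 0 higher, with the core protein gene Snrpb at 940.3 and 844 FPKM with DMSO and 179 and 188 FPKM with dTAG13 (log2 fold change -2.31, adjusted p = 2.97e-05). With all 4 libraries the lower shares, 17.2%, 19.4% and 22.0%, lay closer to the 15.6% of all genes than those of the replication (39.5%) and ribosome biogenesis (40.8%) genes. These shares were not matched for level. Among protein-coding genes at 100 to 300 FPKM in DMSO, 28.8% were lower and 2.26% higher.

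The naive pluripotency genes divided into a group that fell and a group that did not. Of 32, 12 were called lower and 1 higher, and the median was -0.35. Pou5f1, which encodes the core pluripotency factor OCT4, was at 163 and 125 FPKM in the DMSO libraries and 45.7 and 41.9 FPKM in the dTAG13 libraries (log2 fold change -1.75 ± 0.16 SE, adjusted p = 0.000243). Nanog, another core factor, was at 90.4 and 111 FPKM in the DMSO libraries and 48.3 and 48.3 FPKM in the dTAG13 libraries (log2 fold change -1.12 ± 0.12 SE, adjusted p = 0.000515). Both pairs were separate between the groups, as in 2397 of all 2415 genes called lower. Nanog lost its call under upper-quartile scaling, at -0.93. Utf1, a chromatin factor gene of pluripotent cells, was at 259 and 177 FPKM with DMSO and 59.8 and 61.8 FPKM with dTAG13 (log2 fold change -1.88 ± 0.19 SE, adjusted p = 0.000377). Spic, an ETS factor gene of the naive state, was at 17.1 and 21.8 FPKM with DMSO and 3.31 and 3.17 FPKM with dTAG13 (log2 fold change -2.51 ± 0.18 SE, adjusted p = 0.000109), the largest fall on the list. Eras, which encodes a constitutively active RAS protein of ES cells, was at 18.3 and 21.01 FPKM with DMSO and 6.82 and 5.58 FPKM with dTAG13 (log2 fold change -1.69 ± 0.19 SE, adjusted p = 0.000541). Prdm14, a repressor of primed-state genes, was at 2.7 and 2.73 FPKM with DMSO and 0.98 and 0.83 FPKM with dTAG13 (log2 fold change -1.62 ± 0.22 SE, adjusted p = 0.0012), and the kinase gene Pim2 at 5.13 and 3.47 FPKM with DMSO and 1.53 and 1.32 FPKM with dTAG13 (log2 fold change -1.63 ± 0.27 SE, adjusted p = 0.00263). Tcl1, Nr0b1, Gdf3, Lin28a and Trim28 fell as well, by 1.83, 1.29, 1.21, 1.18 and 1.17 on the log2 scale, the last 2 being lost with upper-quartile scaling and Lin28a also without the second DMSO library.

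Sox2, Klf4, Esrrb, Tfcp2l1 and Zfp42, all genes of the same naive network, were not called. Sox2 was at 14.4 and 21.1 FPKM with DMSO and 23.8 and 23.9 FPKM with dTAG13 (log2 fold change 0.39, adjusted p = 0.121), with the second DMSO library close to the dTAG13 pair. Esrrb was at 10.2 and 13.4 FPKM with DMSO and 14.04 and 14.9 FPKM with dTAG13 (log2 fold change 0.15, adjusted p = 0.435). Klf4 was at 20.9 and 28 FPKM with DMSO and 35.5 and 34.5 FPKM with dTAG13 and passed the adjusted p but not the fold threshold (log2 fold change 0.48, adjusted p = 0.0335). Tfcp2l1 and Zfp42 had log2 fold changes of 0.01 and 0.03, and their groups overlapped or nearly so. The direction of Esrrb, Tfcp2l1 and Zfp42 was negative without the first DMSO library. The 1 member that rose was Tfap2c, which encodes an AP-2 factor, at 1.04 and 0.97 FPKM with DMSO and 2.81 and 3.16 FPKM with dTAG13 (log2 fold change 1.47 ± 0.22 SE, adjusted p = 0.0018). A promoter was at hand for 20 of the 32 genes, too few for a share, and none of the 20 held CCGGAAG, although 10 of them were called lower.

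Most targets of p53 were called higher. Of 35, 23 were called higher and 0 lower, and the median log2 fold change was 1.83. Without the first DMSO library 24 were higher and 0 lower, with a median of 1.85. Mdm2, the ubiquitin ligase that holds p53 in check, was at 52.2 and 38.97 FPKM in the DMSO libraries and 677 and 668 FPKM in the dTAG13 libraries (log2 fold change 3.62 ± 0.15 SE, adjusted p = 2.33e-05). Cdkn1a, the p21 cell cycle inhibitor gene, was at 146 and 142 FPKM in the DMSO libraries and 555 and 548 FPKM in the dTAG13 libraries (log2 fold change 1.87 ± 0.09 SE, adjusted p = 3.69e-05). Within each group the libraries differed far less than the groups did. Of genes in apoptosis, Pmaip1 (NOXA) was at 28.9 and 26.8 FPKM with DMSO and 104 and 101 FPKM with dTAG13 (log2 fold change 1.83, adjusted p = 5.28e-05). Apaf1, of the apoptosome, was at 2.72 and 4.92 FPKM with DMSO and 25.6 and 28.03 FPKM with dTAG13 (log2 fold change 2.85, adjusted p = 0.000249). Bbc3 (PUMA) was at 0.75 and 0.62 FPKM with DMSO and 1.45 and 1.8 FPKM with dTAG13 (log2 fold change 1.27, adjusted p = 0.0173), a low level at which the call was lost under 4 other settings.

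Ddit4l, a relative of the mTORC1 inhibitor Ddit4, was at 15.3 and 14.4 FPKM with DMSO and 223 and 235 FPKM with dTAG13 (log2 fold change 3.84, adjusted p = 1.88e-05). Plk2, a polo-like kinase gene, was at 9.5 and 8.64 FPKM with DMSO and 99.3 and 94.05 FPKM with dTAG13 (log2 fold change 3.34, adjusted p = 2.02e-05). Btg2, an antiproliferative gene, was at 11.4 and 11.4 FPKM with DMSO and 79.95 and 76.4 FPKM with dTAG13 (log2 fold change 2.75, adjusted p = 2.23e-05). In each of these genes both dTAG13 libraries lay above both DMSO libraries, as in 1912 of all 1924 genes called higher. Targets that were not called included Bax, the pore-forming apoptosis gene, at 835 and 624 FPKM with DMSO and 627 and 672 FPKM with dTAG13 (adjusted p = 0.287), and Tigar, a regulator of glycolysis, with a log2 fold change of -0.33. The mRNA of p53 itself was lower, at 91.05 and 100.01 FPKM in the DMSO libraries and 60.3 and 60.8 FPKM in the dTAG13 libraries (log2 fold change -0.67 ± 0.11 SE, adjusted p = 0.00211), but did not reach the 2-fold threshold. The level of p53 protein was not measured in these libraries.

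**Figure D4:**
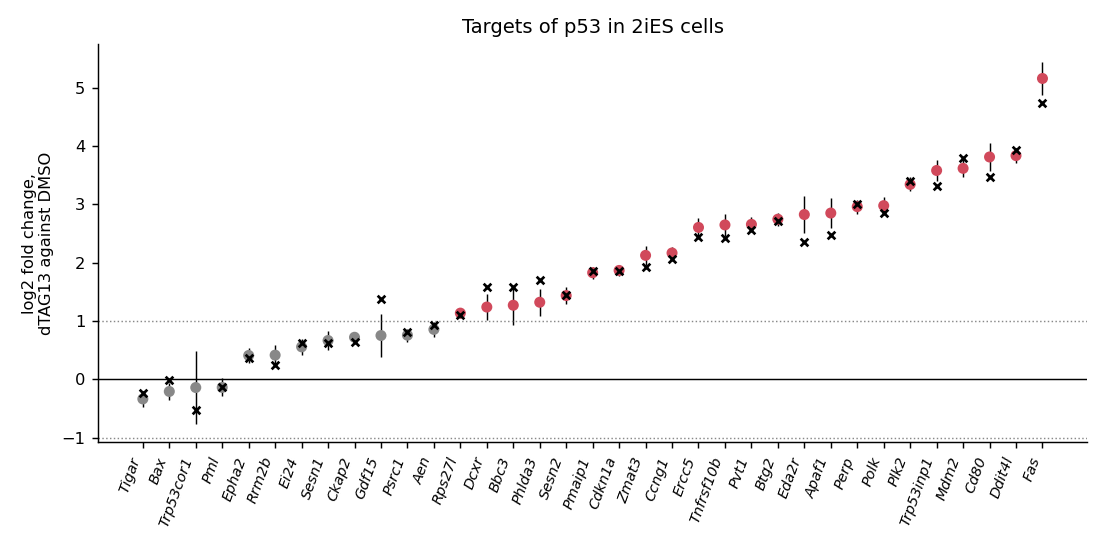
Log2 fold change (dTAG13 against DMSO) of the 35 tested p53 targets in 2iES cells, ordered by size. Points are the values from all 4 libraries with their SE (red, called higher, grey, not called), crosses are the values without the first DMSO library, and dotted lines mark 2-fold. The red points run from 1.14 (Rps27l) to 5.16 (Fas), and 4 of the 35 lie under 0.

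Of the BCL2 family, 3 of 13 were lower and 3 higher (23.1% each, against 15.6% and 12.4% of all genes). With upper-quartile scaling 5 were higher. The pro-apoptotic genes Bid, Bad and Bok fell, by 1.43, 1.40 and 1.44 on the log2 scale, while Pmaip1, Bbc3 and the anti-apoptotic Mcl1 rose. The targets of ATF4, the transcription factor of the integrated stress response, moved in both directions: 14 of 33 were lower and 5 higher (median -0.62). Those that fell included enzymes and carriers of amino acid supply. Asns, asparagine synthetase, was at 537 and 628 FPKM with DMSO and 236 and 210.4 FPKM with dTAG13 (log2 fold change -1.42, adjusted p = 0.000156). Psat1, of serine synthesis, was at 78.2 and 71.5 FPKM with DMSO and 22.03 and 17.9 FPKM with dTAG13 (log2 fold change -2.06, adjusted p = 9.13e-05). Slc7a3, a cationic amino acid transporter gene, was at 59.97 and 57.2 FPKM with DMSO and 8.01 and 8.93 FPKM with dTAG13 (log2 fold change -2.81, adjusted p = 2.97e-05). Those that rose were Atf3, Ddit3 (CHOP), Ddit4, Cebpb and Sesn2, the last also a p53 target. Ddit3 was at 9.91 and 14.6 FPKM with DMSO and 77.6 and 73.7 FPKM with dTAG13 (log2 fold change 2.57, adjusted p = 0.000155). Ddit4, an inhibitor of mTORC1 signalling, was at 0.57 and 0.46 FPKM with DMSO and 8.76 and 9.19 FPKM with dTAG13 (log2 fold change 4.08, adjusted p = 4.98e-05). Atf4 itself had a log2 fold change of -0.69 and was not called.

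Markers of other states that a stem cell culture can hold were described by counts and summed levels. Over all genes tested 15.6% were lower and 12.4% higher. Of the tested formative and primed genes 18.8% were lower. Higher were 21.4% of primitive endoderm, 16.7% of trophectoderm and 23.5% of two-cell-like markers. Of 16 tested formative and primed genes 3 were lower (Lefty2, Foxd3 and Zic5) and 0 higher, and the 19 listed summed to 88.1 to 96.8 FPKM with DMSO and 76.9 to 77.8 FPKM with dTAG13. Of 14 tested primitive endoderm markers 3 were higher (Cubn, Col4a1 and Lamb1) and 0 lower, none above 3 FPKM in any library, and the 21 listed summed to 237 to 272 and 195 to 201 FPKM. When 1 of the DMSO libraries was left out, 1 was lower. Foxd3 and Cubn, both near 1 FPKM where they were higher, went under the level threshold when a library was left out. This was the second DMSO library for Foxd3 (log2 fold change then -2.56) and the first dTAG13 library for Cubn (4.24). Of 18 tested trophectoderm markers 3 were higher and 1 lower (3 lower without the second DMSO library), and the sum was 1303 to 1402 FPKM with DMSO and 2720.1 to 2799 FPKM with dTAG13, most of it from Fabp3, a fatty acid-binding protein gene that ES cells also express, at 1083 and 1050.1 FPKM with DMSO and 2376 and 2464 FPKM with dTAG13. Fabp3 shares 37.3% of its 31-base words with other gene models. The defining trophectoderm gene Cdx2 did not reach the count needed for a test. In bulk RNA, fewer cells of a type and less RNA per cell cannot be told apart. Of 17 two-cell-like markers 4 were higher and 0 lower, with a sum of 15.9 and 84.5 FPKM with DMSO and 181.6 and 66.0 FPKM with dTAG13. The groups overlapped in that sum, and near-identical copies share reads in this family (65.0% of the words of Zscan4d). The median log2 fold change was 1.06 with all libraries and depended on single libraries. It was 0.46 without the first and 3.12 without the second DMSO library, and 0.44 without the first and 1.65 without the second dTAG13 library. The number called also moved with the library left out. Zscan4d, 1 of the 4 markers called higher, lost its call with DESeq2 (adjusted p = 0.0723) and in edgeR's test against a 1.5-fold change (adjusted p = 0.0541).

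Signalling genes of the culture conditions showed no common direction. Over all genes tested 15.6% were lower and 12.4% higher. Of 19 genes of FGF and ERK feedback, whose upstream kinase MEK is inhibited in 2i, 4 were lower (Myc, Etv4, Ier3 and Spry4, the last lost without the first dTAG13 library) and 6 higher. Spry2, a feedback inhibitor, was at 18.7 and 21.2 FPKM with DMSO and 53.3 and 55.1 FPKM with dTAG13 (log2 fold change 1.41, adjusted p = 0.000201). Myc, also a growth regulator, was at 11.5 and 7.98 FPKM with DMSO and 3.13 and 3.33 FPKM with dTAG13 (log2 fold change -1.62, adjusted p = 0.00119). Of 16 LIF and STAT3 pathway genes 2 were lower (12.5%, Bcl3 and Junb) and 1 higher (6.25%, Mcl1), both under the shares of all genes. Of 14 WNT targets 3 were lower (21.4%, Ccnd1, Cdx1 and Notum) and 2 higher (14.3%, Tnfrsf19 and Ascl2). Without the first dTAG13 library 4 WNT targets were higher, and Ascl2 lost its call without the second DMSO library (log2 fold change 0.77). Among other ETS factors 4 of 17 were lower (23.5%, Etv3, Spic, Etv4 and Elk4) and 1 higher (5.88%). Elk4 lost its call under 6 other settings, among them leaving out any library but the first DMSO library. Etv3, a repressor of the family, was at 1.61 and 1.41 FPKM with DMSO and 0.09 and 0.13 FPKM with dTAG13 (log2 fold change -4.04, adjusted p = 0.000113). The gene that rose was Elf1, which binds similar sites, at 1.61 and 1.87 FPKM with DMSO and 7.88 and 7.78 FPKM with dTAG13 (log2 fold change 2.08, adjusted p = 0.000129).

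Genes that start close to each other on opposite strands were frequent among those that fell. Of 2233 protein-coding genes called lower, 306 (13.7%, 95% Wilson interval 12.3 to 15.2%) had another protein-coding gene starting within 1000 bases on the other strand, against 911 of 9331 not called (9.76%, 9.18 to 10.4%) and 118 of 1428 called higher (8.26%, 6.94 to 9.81%). In 619 such pairs with both genes tested, both were lower in 63 and both higher in 11, 8 pairs moved in opposite directions, and 150 held a gene that fell beside one that was not called. Across the pairs, which share a promoter region and the same libraries, the log2 fold changes had a Pearson correlation of 0.45, given as a description.

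The same comparison was made in the inner cell mass (ICM) of E4.5 embryos with the same tag, to show where the response of 2iES cells differed. By the study's account, this ICM is epiblast and primitive endoderm together, taken at the mid-blastocyst stage after immunosurgery removed the trophectoderm. Bulk values do not separate its cell types, and whether trophectoderm cells remained was not tested. The embryos received 1 µM dTAG13 for another length of time, so dose, time and cell type cannot be told apart. The 2 ICM libraries of each group differed by 1.62 and 1.67 times the variance of sampling, so they lay closer together than those of 2iES cells. In the ICM 2091 of 15840 genes were lower (13.2%) and 1909 higher (12.1%). Of 13842 genes tested in both, 1018 were lower in both, which is 43.7% of the genes lower in 2iES cells and 52.4% of those lower in the ICM. Higher in both were 474, or 28.8% and 33.0%, and 53 were lower in 2iES cells and higher in the ICM and 63 the reverse. The response itself differed, by the interaction of cell type and treatment at an adjusted p below 0.05, for 7392 of 17657 genes (41.9%).

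Of the core pluripotency genes, Pou5f1 and Sox2 were among the genes that differed. Pou5f1 fell more in 2iES cells: in the ICM it was at 223 and 229 FPKM with DMSO and 169.6 and 169 FPKM with dTAG13 (log2 fold change -0.46), and the difference of the fold changes was -1.27 ± 0.16 (SE, adjusted p = 0.00027). Sox2 was at 20.0 and 20.3 FPKM and then 4.42 and 4.18 FPKM in the ICM, a fall of 2.29 on the log2 scale that 2iES cells did not share (difference 2.697 ± 0.24, adjusted p = 4.33e-05). Klf4 and Esrrb had log2 fold changes of -0.85 and -0.93 in the ICM, and their differences were 1.35 ± 0.17 (adjusted p = 0.000346) and 1.09 ± 0.17 (adjusted p = 0.00092). Prdm14 and Eras fell in both but less in 2iES cells, with differences of 2.39 ± 0.24 (adjusted p = 8.96e-05) and 1.80 ± 0.23 (adjusted p = 0.000353). For Nanog (0.28 ± 0.14, adjusted p = 0.132), Utf1 (-0.38 ± 0.20, adjusted p = 0.156) and Pim2 (-0.28 ± 0.27, adjusted p = 0.448) no difference was detected.

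Over all genes, 21.8% had a higher and 20.1% a lower log2 fold change in 2iES cells than in the ICM at the adjusted p. Of 32 naive genes 14 had a higher (43.8%) and 6 a lower one (18.8%, near the share of all genes). Of 33 p53 targets 20 had a higher one in 2iES cells (60.6%) and 3 a lower one (9.09%), with median log2 fold changes of 1.83 in 2iES cells and 1.10 in the ICM. Without the second DMSO library of 2iES cells 18 naive genes were higher and 11 lower and 7 p53 targets lower, against 28.6% and 26.6% of all genes. Over the fits without 1 of the 8 libraries, 9 to 18 naive genes and 17 to 21 p53 targets were higher, with 15.6 to 28.6% of all genes. Mdm2 was at 44.4 and 45.6 FPKM with DMSO and 109.9 and 112 FPKM with dTAG13 in the ICM, and its fold change differed by 2.47 ± 0.14 (adjusted p = 7.48e-06). Cdkn1a had log2 fold changes of 1.87 in 2iES cells and 2.14 in the ICM (difference -0.25 ± 0.09, adjusted p = 0.0542). Trophectoderm markers differed the other way, with 13 of 17 lower in 2iES cells (76.5%), also without each single library. Krt18, an epithelial keratin gene, was at 24.9 and 26.8 FPKM and then 524 and 526 FPKM in the ICM and was not called in 2iES cells (log2 fold change 0.18, difference -4.09 ± 0.14, adjusted p = 1.2e-06). For Tfam no difference was detected (-0.05 ± 0.10, adjusted p = 0.758).

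**Figure D5:**
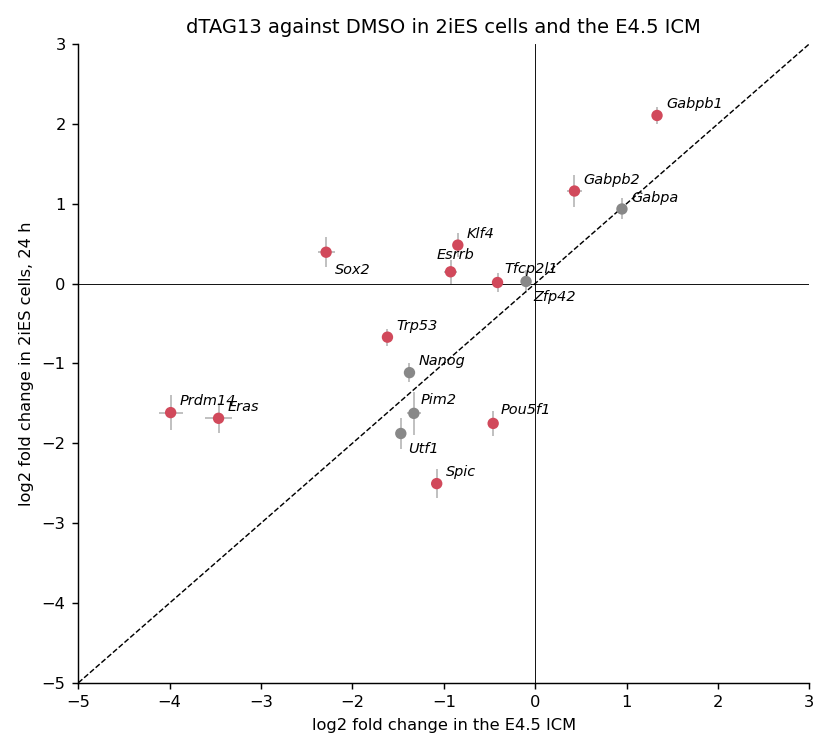
Log2 fold change (dTAG13 against DMSO) in 2iES cells against that in the E4.5 ICM for the GABP subunits, 12 pluripotency genes and Trp53, with the SE of each. Red points have an adjusted p below 0.05 for the difference, grey points do not, and the dashed line marks equal values. Sox2, Klf4 and Esrrb lie below 0 in the ICM and above it in 2iES cells (Esrrb at -0.04 without the first DMSO library), and Pou5f1 and Spic lie below the line.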

How the data were processed

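Poly(A) RNA had been converted to cDNA with SMART-Seq v4 and made into Nextera XT libraries, which keep no strand. The authors trimmed reads with Trimmomatic, aligned them with STAR to GRCm38 and deposited, from RSEM, expected counts and FPKM for 55385 genes per library. Expected counts were rounded. Genes reaching 10 counts in 2 or more of the 4 libraries were compared with edgeR 4.0.16 in R 4.3.3 (TMM scaling, quasi-likelihood test, no covariates), and called as the report states. On data simulated from these libraries (15066 genes), 72% of 100 genes changed 2-fold and 99% of 100 changed 4-fold passed the adjusted p in the right direction. Also passing were 24 unchanged genes. The changed genes were drawn from those with higher counts. The fold and FPKM thresholds were not applied, so these shares do not measure the calls of the report. The difference from the E4.5 ICM was the interaction term of 1 fit over 8 libraries. DESeq2 1.42.0 and limma 3.58.1 (voom), other scalings, filters and thresholds, a replicate block, thinned counts and leaving out each library served as alternatives. Genes were named from GENCODE M21.

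Named genes were the GABP subunits, pluripotency genes the study names for 2iES cells with Pou5f1, Sox2, Klf4, Esrrb, Tfcp2l1 and Zfp42, Trp53, the 6 protein-coding genes (mean of at least 10 FPKM in 1 group) with the largest fold change and the 5 with the largest FPKM difference in each direction, and up to 3 called members of each list with the lowest p in each direction. Further list members are given to complete a list and were chosen after their values were seen. Members and lists were chosen with earlier results of these data known, and no list was tested as a set or matched for level in DMSO. Promoters matched 80.8% of lower, 83.2% of higher and 81.9% of uncalled protein-coding genes outside chromosome 18 and under 80% over all gene types, which were therefore left out. Intervals and floors (3 counts per library) cover counting error only. Shared 31-base words were counted in GENCODE transcripts. These shares and overlaps on the other strand are stated for part of the genes only.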

Additional observations from a re-analysis of the deposited data

Results flagged for a closer look

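For 11 of the 16 pluripotency, GABP and p53 genes in the comparison with the E4.5 ICM, the response to dTAG13 differed between 2iES cells and the ICM by the interaction test of edgeR at an adjusted p below 0.05. Over all genes tested, 7392 of 17657 (41.9%) differed by the same test. Dose, length of treatment and cell type differ together and cannot be told apart. The differences, in log2 fold change of 2iES cells minus that of the ICM, were below 0 for Spic (-1.41) and Pou5f1 (-1.27). They were above 0 for Sox2 (2.697), Prdm14 (2.394), Eras (1.798), Klf4 (1.345), Esrrb (1.091), Trp53 (0.9639), Gabpb1 (0.7896), Gabpb2 (0.7459) and Tfcp2l1 (0.4427). Trp53 fell in the ICM (log2 fold change -1.62) and was not called in 2iES cells (-0.67), and Gabpb1 rose in both (1.33 and 2.10). With 2 libraries per group no single library could be tested as an outlier.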

How the results depend on the processing

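The numbers of genes called lower and higher stayed within 1.5 times of 2415 and 1924 under every alternative scaling, filter, tool and level threshold and when each library was left out. The one setting that went further was calling without a fold threshold, with 3981 lower and 3353 higher. Leaving out each library gave 2100 to 2612 lower and 1697 to 2264 higher genes, and 5262 to 9611 genes that differed from the ICM, against 7392 with all libraries. Fitted with the replicate number as a block, 2392 genes were lower and 1977 higher, and 6229 differed from the ICM. The block rests on numbers only, since libraries of the same number did not deviate together (correlation -0.23 over 10932 genes). With the pairing crossed, an alternative added after seeing the data, 2411 were lower and 2019 higher. DESeq2 called 2319 lower and 1759 higher.

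Of the results for named genes under these alternatives, 2520 kept direction and call, 51 lost the call, 6 (Gabpa) gained it and 5 changed sign. The sign changes were in genes that were not called: Tfcp2l1 (-0.065) and Zfp42 (-0.052) with no filter on low counts, and Esrrb, Tfcp2l1 and Zfp42 without the first DMSO library. Leaving out each library in turn gave log2 fold changes of -0.040 to 0.28 for Esrrb, -0.15 to 0.12 for Tfcp2l1 and -0.19 to 0.20 for Zfp42. Of the medians of the gene lists, 421 moved by less than the spread between libraries and 166 by more. The causes were not tested. The mitochondrial transcripts lost their calls with DESeq2 and in the test against a 1.5-fold change, and Gabpb2, Arg2 and Mcoln1 lost theirs without the first DMSO library. Upper-quartile scaling took Nanog, Trim28, Tfam, Fdft1 (-0.88), Sdhd (-0.86) and Uhrf1 (-0.83) under the 2-fold threshold, and left 3 lower cholesterol synthesis genes and 3 lower COP9 subunits. Of the 12 mitochondrial transcripts tested, all were called with limma-voom and with the replicate block. In the test against a 1.5-fold change 10 RNA polymerase subunits were lower. Other list counts that moved by over 1.5 times when 1 library was left out are given beside the lists, and for the two-cell-like markers the medians. Promoters of lower genes held GGAAGTG in 27.3%, CCGGAAG before the start alone in 28.2%, and CCGGAAG in a single promoter per gene, added after seeing the data, in 34.5%, against 36.8% in the report. With 2 libraries per group, 2-fold changes could be missed, as the simulation in the methods shows, although it applied no fold threshold.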

Other observations

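Genes of metabolism outside the mitochondrion were lower in part, set against 15.6% lower and 12.4% higher among all genes. Of 18 glycolytic enzymes 4 were called lower and 1 higher (median log2 fold change -0.63). The lactate dehydrogenase genes went in opposite directions. Ldha was at 546 and 439.8 FPKM with DMSO and 136 and 123.24 FPKM with dTAG13 (log2 fold change -1.97 ± 0.14 SE, adjusted p = 0.000102). Ldhb was at 232 and 204 FPKM with DMSO and 576 and 604 FPKM with dTAG13 (log2 fold change 1.23 ± 0.11 SE, adjusted p = 0.000231). Ldha and Ldhb share 19.6% and 33.0% of their 31-base words with other gene models. Of 23 cholesterol synthesis genes 6 were lower and 1 higher (median -0.46), with 3 lower without the second dTAG13 library and 4 without the second DMSO library, and the member that rose was Srebf2, which encodes the transcription factor of the pathway, at 27.4 and 30.8 FPKM with DMSO and 69.4 and 81.9 FPKM with dTAG13 (log2 fold change 1.22 ± 0.13 SE, adjusted p = 0.000402). Of 26 lysosome and autophagy genes 2 were lower (Tfeb and Mcoln1) and 4 higher (median 0.10), with 4 lower without the second DMSO library and 1 without any other single library. Lamp2, a membrane protein gene of the lysosome, was at 21.6 and 19.5 FPKM with DMSO and 52.9 and 48.7 FPKM with dTAG13 (log2 fold change 1.31 ± 0.11 SE, adjusted p = 0.000213), while Tfeb, a regulator of lysosomal genes, was low throughout, at 1.72 and 1.61 FPKM with DMSO and 0.56 and 1.04 FPKM with dTAG13. Its call was lost with DESeq2 (adjusted p = 0.0555), in edgeR's test against a 1.5-fold change (0.0588) and without the first or the second dTAG13 library (0.107 and 0.0782). Of 10 enzymes of DNA methylation and demethylation 1 was lower, Uhrf1, which recruits the maintenance methyltransferase, at 25.4 and 26.9 FPKM with DMSO and 13.1 and 13.7 FPKM with dTAG13 (log2 fold change -1.02 ± 0.12 SE, adjusted p = 0.00061). This call was lost under 6 other settings, among them leaving out either dTAG13 library, with log2 fold changes between -0.98 and -0.83. Its relative Uhrf2, at 5.64 and 6.63 FPKM with DMSO and 11.99 and 12.7 FPKM with dTAG13, was under the 2-fold threshold (log2 fold change 0.95, adjusted p = 0.0026) and passed it when any library but the first DMSO library was left out.

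The lineage gene lists of the study rest on other samples. Those of the epiblast and the ICM held more genes called lower than higher, set against 15.6% lower and 12.4% higher among all genes. The lists were not matched for level in DMSO. Among protein-coding genes at 10 to 30 FPKM in DMSO, 25.0% were lower and 7.04% higher. Of 189 tested epiblast (EPI) genes 47 were lower (24.9%) and 9 higher (4.76%, 15 genes without the second DMSO library), with a median of -0.37. Of 752 ICM genes 169 were lower (22.5%) and 63 higher (8.38%), with a median of -0.26. Of 234 primitive endoderm (PrE) genes 24 were lower (10.3%) and 39 higher (16.7%), with a median of 0.09. Of 869 trophectoderm (TE) genes 105 were lower (12.1%) and 124 higher (14.3%), both near the shares of all genes, with a median of 0.18. Slc7a3 and Naa10, an N-terminal acetyltransferase gene, were among the EPI genes that fell most clearly, the latter at 205 and 159 FPKM with DMSO and 23.9 and 21.6 FPKM with dTAG13 (log2 fold change -3.06 ± 0.17 SE, adjusted p = 4.76e-05). Serpine2, a secreted protease inhibitor gene on both the TE and the PrE list, was at 11.9 and 10.6 FPKM with DMSO and 158 and 162 FPKM with dTAG13 (log2 fold change 3.70 ± 0.14 SE, adjusted p = 2.16e-05). None of 6 germ layer and none of 4 fibroblast markers tested was called by edgeR's quasi-likelihood test with the level threshold, and at the adjusted p alone 1 germ layer marker was lower and 1 fibroblast marker higher.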
